A study of Homo sapiens with 6 samples.

Results

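The genes described here are 10 regulators and targets of Wnt signalling in SV-HUC-1, a human urothelial cell line immortalised with SV40. They were taken by symbol (DKK1, DKK3, AXIN2, TCF7, TCF7L1, TCF7L2, CTNNB1, LGR4, RNF43 and ZNRF3) from a table of 60624 Ensembl gene identifiers, and all 10 were found. Poly(A)-selected RNA was sequenced from 3 control libraries, whose cells received a blank solution, and from 3 libraries of cells given 2,6-dichloro-1,4-benzoquinone (DCBQ), a halogenated quinone formed when drinking water is disinfected. Exposure lasted 3 days, and no concentration is given in the sources used here. All 6 libraries come from 1 immortalised line, so they hold no other donor or tissue. The labels do not say whether the 3 libraries of a group were separate cultures, so p-values measure only the spread between libraries, which may be technical. Levels are in TPM, transcripts as a share of the library, a unit scaled for gene length and library total that keeps no record of sequencing depth.

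In the canonical Wnt pathway, secreted Wnt proteins bind a Frizzled receptor and its co-receptor LRP5 or LRP6. This stops the destruction complex, built on AXIN and APC with the kinases GSK3 and CK1, from marking β-catenin for degradation. β-catenin then enters the nucleus and binds TCF/LEF factors, which otherwise repress their target genes. The pathway limits itself through inhibitors and ubiquitin ligases that are among its own targets, and in bladder epithelium it is known for roles in regeneration after injury and in tumours.

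The secreted inhibitor gene DKK1 and DKK3, a divergent member of its family, fell in DCBQ. The receptor gene LGR4, the β-catenin gene CTNNB1 and the transcription factor gene TCF7 rose. DKK3 fell 3.12-fold and DKK1 2.54-fold, and LGR4 rose 2.36-fold, TCF7 1.84-fold and CTNNB1 1.45-fold (n = 3 libraries per group). TCF7L1 and ZNRF3 fell by smaller amounts that depended on scaling, and TCF7L2 did not pass the test. AXIN2 and RNF43 were too low to be tested and had groups that did not overlap, AXIN2 with the higher values in DCBQ and RNF43 with the lower. Fitted without a filter, neither passed (limma adjusted p = 0.088 and 0.065). The share of genes below the filter whose groups do not overlap was not computed. Genes with a mean of at least 1 TPM over the 6 libraries were tested with limma on log2(TPM + 1), and a call is a Benjamini-Hochberg adjusted p under 0.05 over all tested genes. Of the 8 members tested, 3 were called higher and 4 lower, against 13.4% called higher, 39.5% called lower and 52.9% called in all among 16734 tested genes. Each of the 8 had a mean of at least 1 TPM in both groups. The groups did not overlap for 7 of these 8, against 61.2% of tested genes.

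**Figure D1:**
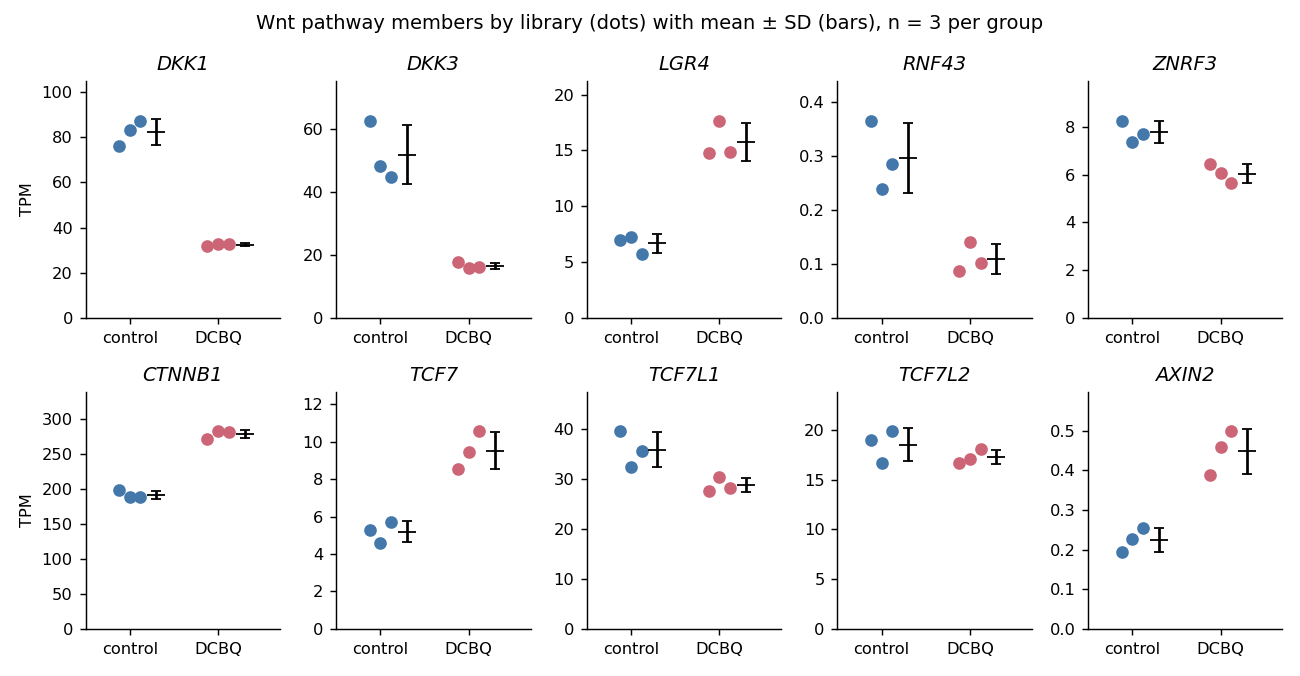
TPM of the 10 Wnt pathway genes in each library (dots; blue, control; red, DCBQ), with the group mean and SD as bars, each panel on its own linear axis from 0. The ranges of control and DCBQ overlap only for TCF7L2, and among all tested genes they do not overlap for 61.2%. CTNNB1 lies between 189 and 199 TPM in control and between 272 and 283 TPM in DCBQ.

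The whole table was shifted, with a median log2 difference of -0.21 over the tested genes. Mitochondrially encoded mRNAs held 16.6% to 17.5% of TPM in control and 23.7% to 24.4% in DCBQ. After median-of-ratios scaling, which centres the libraries on their typical gene, the median was 0.00 and the calls split into 23.9% higher and 23.1% lower. The libraries carried epithelial markers in both groups. The summed level of 13 urothelial and epithelial genes was 4428 to 4620 TPM in control and 6106 to 6430 TPM in DCBQ. As deposited, KRT5, KRT8, KRT18, KRT19, GATA3 and UPK1B were called higher, KRT7 lower, and EPCAM, CDH1 and UPK2 were not called. The log2 difference of KRT7 was -0.16, a smaller fall than the median of -0.21 over the tested genes. KRT19 went from 792 to 1754 TPM, KRT8 from 694 to 1283 TPM and KRT7 from 1531 to 1373 TPM. Of these 13 genes 10 reached 1 TPM, UPK3A was listed at 0, and TP63 and UPK1A had group means under 0.12 TPM. Fibroblast genes summed to 6.84 to 7.80 TPM in control and 14.8 to 16.5 TPM in DCBQ, 2 of 6 reaching 1 TPM with COL1A2, COL3A1, DCN and LUM listed at 0. Immune genes summed to 3.81 to 5.50 TPM and 10.3 to 11.0 TPM (2 of 4 reaching 1 TPM), and endothelial genes to 6.53 to 7.45 TPM and 8.52 to 14.7 TPM (2 of 4, with CDH5 rising from 4.24 to 10.6 TPM and KDR falling from 2.63 to 0.390 TPM). Smooth muscle genes stayed between 0.0744 and 0.804 TPM in sum, with 0 of 4 reaching 1 TPM. The fibroblast gene COL1A1 went from 6.72 to 15.1 TPM, and PDGFRB had 0.724 and 0.735 TPM. Among immune genes CD68 went from 3.85 to 8.56 TPM and CD14 from 0.939 to 2.18 TPM. COL1A1, CD68 and CD14 were called higher, CD14 with a control mean below the filter level. The pan-leukocyte gene PTPRC and the endothelial gene PECAM1 were below 0.04 TPM on average in both groups. The part of these marker changes in the members' values was not tested. In such bulk libraries a change in the share of cells that express a gene and a change in its RNA per cell cannot be told apart.

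DKK1 encodes a secreted protein that binds LRP5 and LRP6 and blocks canonical signalling, and it is itself a known target of the pathway. The gene (ENSG00000107984) lies on chromosome 10, 52314296 to 52318042, plus strand (GRCh38, GENCODE 29). It had 76.3, 83.3 and 87.4 TPM in the control libraries and 31.7, 32.7 and 33.0 TPM in the DCBQ libraries. Every DCBQ library was far below every control library, and the DCBQ values lay close together. The mean went from 82.3 ± 5.6 to 32.5 ± 0.67 TPM (SD, n = 3), a log2 difference of -1.31 (SE 0.062, limma adjusted p = 2e-06) and of -1.07 after median-of-ratios scaling. An antisense gene, PRKG1-AS1, shares 212 exonic bases with DKK1 and was at 0.608 TPM in control and 0.384 TPM in DCBQ.

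DKK3 encodes a divergent member of the same secreted family, whose effect on Wnt signalling varies between cell types. It lies on chromosome 11, 11963106 to 12009769, minus strand. It had 62.5, 48.1 and 44.7 TPM in control and 17.7, 15.9 and 16.1 TPM in DCBQ. The control libraries spread more than for DKK1, with replicate 1 the highest, and the lowest of them was still above the highest DCBQ library. The mean went from 51.8 ± 9.4 to 16.6 ± 1.0 TPM (SD, n = 3), a log2 difference of -1.57 (SE 0.12, limma adjusted p = 2.3e-05). This was the largest difference among the tested members, and the call held in all 17 alternatives, between -1.67 and -1.32.

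LGR4 encodes a receptor for R-spondins, which on binding draws the ubiquitin ligases RNF43 and ZNRF3 away from Frizzled and so raises the cell's sensitivity to Wnt. It lies on chromosome 11, 27365961 to 27472775, minus strand. It had 7.01, 7.28 and 5.76 TPM in control and 14.7, 17.7 and 14.8 TPM in DCBQ. The lowest DCBQ library was above the highest control library by more than the whole range of the control group. The mean went from 6.68 ± 0.81 to 15.7 ± 1.7 TPM (SD, n = 3), with a log2 difference of 1.13 (SE 0.12, limma adjusted p = 0.00012) that became 1.35 after median-of-ratios scaling. It is the largest rise among the tested members.

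The ubiquitin ligases that LGR4 opposes remove Frizzled receptors from the cell surface and are induced by the pathway as a brake. ZNRF3 (chromosome 22, 28883592 to 29057487, plus strand) had 8.26, 7.34 and 7.68 TPM in control and 6.43, 6.05 and 5.65 TPM in DCBQ. The groups did not overlap, and the log2 difference was -0.31 (SE 0.11, limma adjusted p = 0.036), near the median of all tested genes. The call was lost after median-of-ratios scaling (-0.10, adjusted p = 0.46), and also when control replicate 1 (adjusted p = 0.12), 2 (0.059) or 3 (0.082) or DCBQ replicate 2 (0.067) or 3 (0.11) was left out. RNF43 (chromosome 17, 58352500 to 58417595, minus strand) had 0.366, 0.239 and 0.286 TPM in control and 0.0871, 0.141 and 0.103 TPM in DCBQ. Its groups did not overlap, at a level below the filter. Fitted without any filter, its log2 difference was -0.22 (SE 0.068, limma adjusted p = 0.065), on a scale whose pseudocount of 1 understates the change of so low a gene. AC004687.2, on the same strand, shares 4326 of the 7505 exonic bases of RNF43 and went from 0.632 to 0.231 TPM, so how reads were divided between them is uncertain. SUPT4H1, also on the same strand, shares 143 exonic bases at 71.3 TPM in control and 66.0 TPM in DCBQ, far above the level of RNF43. TSPOAP1-AS1, on the opposite strand, shares 1521 exonic bases and was at 0.0825 and 0.0758 TPM.

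CTNNB1 encodes β-catenin, which acts both as the nuclear effector of Wnt signalling and as a link between cadherins and the cytoskeleton. It lies on chromosome 3, 41194741 to 41260096, plus strand. It had 198.5, 188.8 and 188.7 TPM in control and 272, 283 and 281 TPM in DCBQ. Both groups were tight and far apart. The mean went from 192 ± 5.6 to 279 ± 5.7 TPM (SD, n = 3), a log2 difference of 0.54 (SE 0.041, limma adjusted p = 2.2e-05) that became 0.78 after median-of-ratios scaling. The RNA level does not measure β-catenin protein, whose amount the pathway sets by degradation.

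Of the TCF/LEF factors, which bind DNA and recruit β-catenin, TCF7 rose, TCF7L1 fell as deposited and TCF7L2 did not pass the test. TCF7 (chromosome 5, 134114711 to 134151865, plus strand), also a target of the pathway, had 5.30, 4.58 and 5.69 TPM in control and 8.55, 9.47 and 10.6 TPM in DCBQ. The groups were separate, with more spread in DCBQ, and the log2 difference was 0.77 (SE 0.12, limma adjusted p = 0.0011). SKP1, on the opposite strand, shares 210 of the 10063 exonic bases of TCF7 and went from 60.5 to 111 TPM. Whether strand was used in counting is not given in the sources used here, so reads of the pair cannot be told apart over those bases, and the part of SKP1 in the rise was not tested.

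TCF7L1, known mostly as a repressor, lies on chromosome 2, 85133410 to 85310388, plus strand. It had 39.5, 32.5 and 35.6 TPM in control and 27.6, 30.3 and 28.3 TPM in DCBQ. The lowest control library was only slightly above the highest DCBQ library, and the log2 difference was -0.31 (SE 0.083, limma adjusted p = 0.014). After median-of-ratios scaling it was -0.07 (adjusted p = 0.47). TCF7L2, the main β-catenin partner in many epithelia, lies on chromosome 10, 112950250 to 113167678, plus strand. It had 19.0, 16.7 and 19.9 TPM in control and 16.7, 17.1 and 18.1 TPM in DCBQ. These groups overlapped, with a log2 difference of -0.09 (95% interval -0.29 to 0.11, limma adjusted p = 0.41) that turned to 0.14 (adjusted p = 0.20) after median-of-ratios scaling. TCF7L2 overlaps the antisense gene AL158212.2 over 300 exonic bases, and that gene was at 0.268 TPM in control and 0.0821 TPM in DCBQ.

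**Figure D2:**
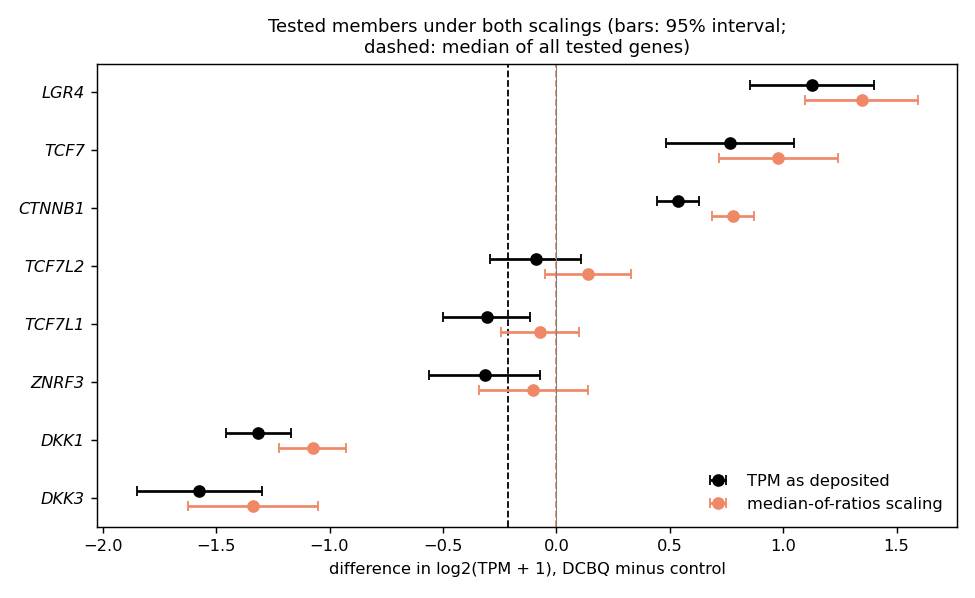
Difference in log2(TPM + 1), DCBQ minus control, of the 8 tested Wnt pathway genes (points, with 95% limma intervals as bars) for TPM as deposited (black) and after median-of-ratios scaling (orange); dashed lines mark the median of all tested genes, -0.21 as deposited and near 0 after scaling. LGR4, TCF7, CTNNB1, DKK1 and DKK3 keep intervals clear of 0 under both scalings, while those of TCF7L1, ZNRF3 and TCF7L2 include 0 after scaling.

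AXIN2, a scaffold of the destruction complex and one of the most general targets of β-catenin, was barely detected. It lies on chromosome 17, 65528563 to 65561647, minus strand. It had 0.194, 0.226 and 0.254 TPM in control and 0.388, 0.458 and 0.499 TPM in DCBQ. Every DCBQ library was above every control library, and the means of 0.225 ± 0.030 and 0.448 ± 0.056 TPM (SD, n = 3) differed 2.00-fold. Fitted without any filter, its log2 difference was 0.24 (SE 0.080, limma adjusted p = 0.088), so it did not pass the test. No count of reads stands behind these values, and their counting error is unknown.

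Between genes, levels per length in control spanned 0.225 to 192 TPM. In control the order of mean TPM was CTNNB1, DKK1, DKK3, TCF7L1, TCF7L2, ZNRF3, LGR4, TCF7, RNF43 and AXIN2, and only the neighbours RNF43 and AXIN2 had overlapping library ranges. In DCBQ the order was CTNNB1, DKK1, TCF7L1, TCF7L2, DKK3, LGR4, TCF7, ZNRF3, AXIN2 and RNF43. There TCF7L2, DKK3 and LGR4 had overlapping ranges, from 14.7 to 18.1 TPM. DKK3 thus went from the third to the fifth place and LGR4 from the seventh to the sixth, passing ZNRF3.

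Ratios within a library do not move when that library is rescaled, and 2 of them were tested. TCF7 made up 8.25%, 8.50% and 9.23% of the summed TPM of TCF7, TCF7L1, TCF7L2 and LEF1 in control, and 16.1%, 16.6% and 18.5% in DCBQ. All 3 DCBQ libraries were above all 3 control libraries (means 8.66% ± 0.51 and 17.1% ± 1.3, SD). Any SKP1 reads counted for TCF7 would remain in this share, and their part in it was not tested. TCF7L1 made up 59.9% ± 2.0 and 51.6% ± 1.9 and TCF7L2 30.9% ± 1.3 and 31.1% ± 0.92, while LEF1 stayed below 0.81% in every library. LGR4 divided by the sum of RNF43 and ZNRF3 was 0.813, 0.960 and 0.723 in control and 2.26, 2.86 and 2.58 in DCBQ. These groups were also separate (means 0.832 ± 0.12 and 2.57 ± 0.30, SD). Nearly all of the divisor was ZNRF3, with means of 7.76 TPM in control and 6.04 TPM in DCBQ beside 0.297 and 0.110 TPM of RNF43. Each ratio gave p = 0.1 in a two-sided exact permutation test, the smallest that the 20 labellings of 6 libraries allow, and 0.1 after Benjamini-Hochberg adjustment over the 2 tests.

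**Figure D3:**
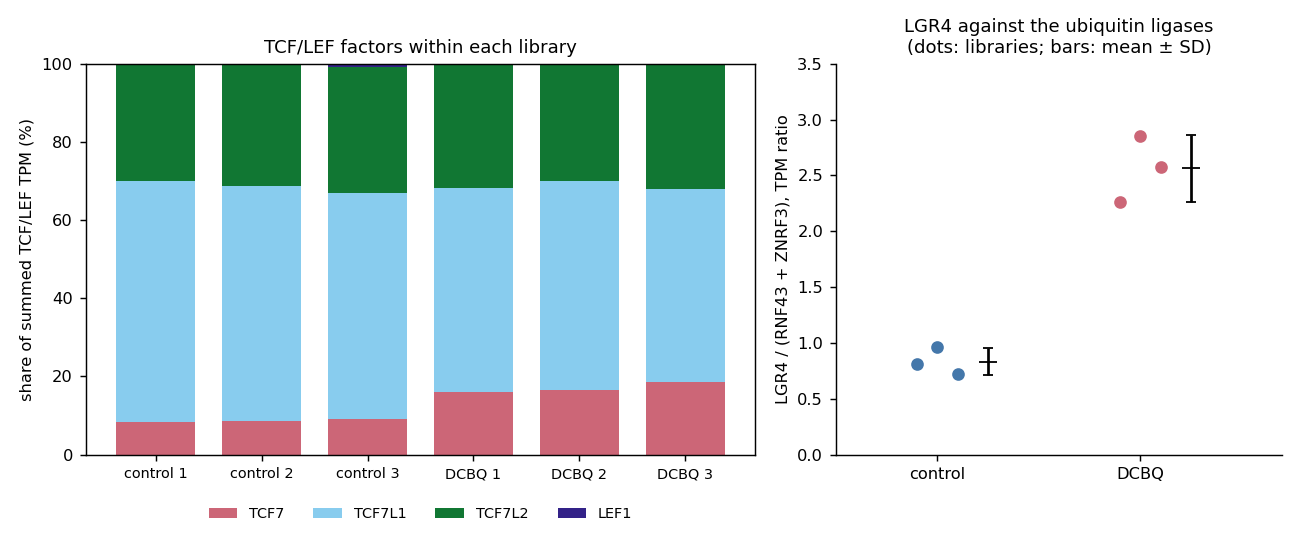
Left, the share (%) of summed TCF/LEF TPM held by TCF7, TCF7L1, TCF7L2 and LEF1 in each of the 6 libraries, as stacked bars; right, LGR4 TPM divided by the summed TPM of RNF43 and ZNRF3 (dots, libraries; bars, mean and SD, n = 3). The TCF7 share is 8.25% to 9.23% in control and 16.1% to 18.5% in DCBQ, and the LGR4 ratio lies below 1 in every control library and above 2 in every DCBQ library.

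The rest of the pathway was read through 10 lists of 138 genes, which include the members, and 100 of these genes were tested. Of the 100, 16 were called higher and 45 lower, near the 13.4% and 39.5% of all tested genes. Their median log2 difference was -0.17 against -0.21 for all tested genes. After median-of-ratios scaling the shares of all tested genes were 23.9% higher and 23.1% lower. Every list count below is to be read beside these shares. The destruction complex and Dishevelled list was the most one-sided, with 0 of 19 tested genes called higher and 15 lower and a median of -0.50. After median-of-ratios scaling 1 was called higher and 10 lower, with a median of -0.31. AXIN1, the ubiquitous scaffold related to AXIN2, fell 2.06-fold from 73.7 ± 2.1 to 35.8 ± 1.0 TPM, and the kinase gene GSK3B fell 2.10-fold from 56.9 ± 0.68 to 27.1 ± 2.6 TPM. DVL1, which relays the signal from Frizzled, fell 1.67-fold and the kinase gene CSNK1E 1.54-fold (limma adjusted p of 1.7e-05 or less for all 4).

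Of 19 tested nuclear partners of β-catenin, 5 were called higher and 7 lower, with a median of -0.04, and 10 higher and 5 lower after median-of-ratios scaling, with a median of 0.20. Beside CTNNB1 and TCF7, the Groucho co-repressor genes TLE1 and TLE2 fell 1.78-fold and 1.49-fold, and the co-repressor gene CTBP2 fell 1.69-fold. The related Groucho genes TLE3 and TLE4 rose, from 16.6 ± 1.1 to 27.0 ± 1.5 TPM and from 14.7 ± 1.7 to 22.0 ± 2.6 TPM, so this family went both ways. Of 12 tested target genes of the pathway, 1 (TCF7) was called higher and 6 lower, with a median of -0.21, equal to that of all tested genes, and 3 higher and 4 lower after median-of-ratios scaling. The lower calls include NOTUM, which passed the filter only through its control level. CCND1, which encodes cyclin D1, fell 1.60-fold from 291 ± 11 to 182 ± 7.7 TPM, and the growth regulator gene MYC fell 1.41-fold from 368 ± 8.6 to 261 ± 16 TPM. Both have many other inputs beside β-catenin. LEF1, a further target and TCF/LEF factor, was below the filter at 0.311 TPM in control and 0.094 TPM in DCBQ.

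Receptors and co-receptors numbered 15 tested, 1 of them called higher and 5 lower, and their median of -0.14 turned to 0.09 after median-of-ratios scaling, where 2 were higher and 3 lower. FZD6 fell 1.69-fold from 59.6 ± 3.0 to 35.3 ± 3.2 TPM, the co-receptor gene LRP5 1.62-fold from 41.9 ± 1.7 to 25.9 ± 0.41 TPM and RYK, which encodes another Wnt receptor, 1.46-fold. FZD10 fell 1.57-fold, a call lost after median-of-ratios scaling (adjusted p = 0.054). Of 8 tested secreted and surface inhibitors, 3 were called higher and 3 lower under both scalings, and the median of -0.04 turned to 0.17 after median-of-ratios scaling. DKK1 and DKK3 fell, the latter listed here although its effect on Wnt signalling varies between cell types. TRABD2A, which encodes a Wnt-cleaving protease, rose 2.06-fold from 6.34 ± 0.54 to 13.1 ± 1.0 TPM. The Frizzled-related inhibitor gene SFRP1 rose 1.40-fold from 31.8 ± 0.60 to 44.7 ± 1.7 TPM. NOTUM, a further inhibitor gene and also a target of the pathway, fell 4.00-fold. It had 3.22 ± 0.49 TPM in control and 0.805 ± 0.33 TPM in DCBQ, a log2 difference of -1.24 (limma adjusted p = 0.0012). Its DCBQ mean was below 1 TPM, so NOTUM passed the filter only through its control level. Its call, which is in the counts of the inhibitors and of the targets, is to be read with that limit. The inhibitors therefore did not move in 1 direction.

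Of 19 Wnt ligand genes 8 were tested, with 1 higher and 3 lower and a median of -0.29 (1 higher and 1 lower after median-of-ratios scaling, median -0.10). WNT7B was the ligand with the smallest p and fell 1.37-fold from 64.3 ± 2.1 to 47.0 ± 1.6 TPM, while WNT9A rose 1.75-fold from 15.9 ± 2.2 to 27.8 ± 1.8 TPM. The calls of WNT10A (-0.20) and WNT5A (-0.38) were lost after median-of-ratios scaling (adjusted p = 0.59 and 0.27), as was that of RSPO4 (-0.44, adjusted p = 0.12), an R-spondin that binds LGR4. The call of WNT5A was also lost without any 1 of the 3 control libraries or DCBQ replicate 1 or 3 (adjusted p of 0.057 to 0.11 over these and the replicate block), and those of RSPO4 and WNT10A without control replicate 1 (0.052 and 0.058). In the R-spondin, LGR and ligase list 3 of 9 genes were tested, 1 higher (LGR4) and 2 lower (ZNRF3 and RSPO4), with a median of -0.31, and 1 higher and 0 lower after median-of-ratios scaling. LGR5 and LGR6, the receptors related to LGR4, were below the filter. LGR5 was barely detected in control, at 0.0583 TPM, and listed at 0 in all DCBQ libraries. LGR6 was at 0.737 TPM in control and 0.617 TPM in DCBQ.

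**Figure D4:**
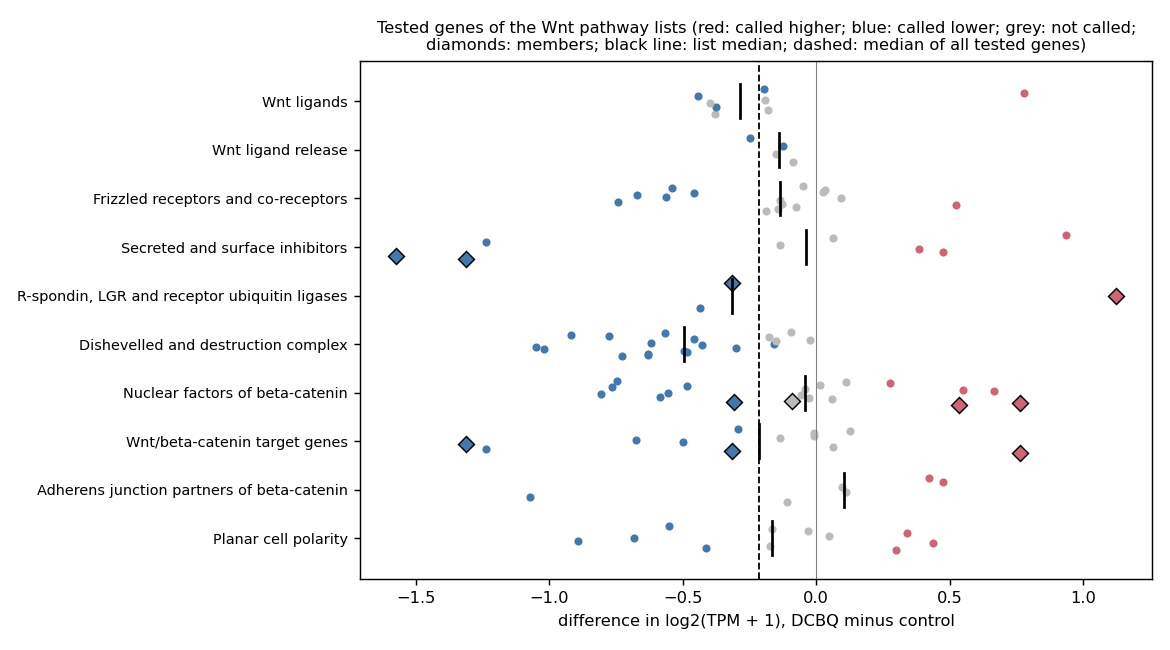
Difference in log2(TPM + 1), DCBQ minus control, of each tested gene of the 10 Wnt pathway lists (red, called higher; blue, called lower; grey, not called; diamonds, the 8 tested members), with list medians as black lines and the median of all tested genes, -0.21, dashed. The destruction complex list has no gene called higher, and DKK1, DKK3 and LGR4 lie at the far ends of their lists.

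Start sites were looked at because the study paired these libraries with maps of DNA methylation, which were not analysed here. RefSeq promoter windows (GRCh38.p14, 250 bases before to 50 after an annotated start) matched 7 of the 10 members, with 11 windows in all. DKK3, AXIN2 and ZNRF3 had no entry. The first listed windows of TCF7L1, CTNNB1, TCF7, DKK1, TCF7L2 and LGR4 held 18 to 39 CpG sites each, against a median of 14 over 35116 windows, while a further window of TCF7 held 3, those of TCF7L2 7 and 5, and those of RNF43 5 and 0. The TCF/LEF core CTTTGAT or its variant CTTTGAA, on either strand, was found in 6.86% of all windows and in 1 of the 11 member windows, that of DKK1. The bases upstream of DKK1 and LGR4, with the largest fall and the largest rise among the tested members that have a window, are shown 5′ to 3′ on the gene's strand, with the CTTTGAA of DKK1, which begins at position -95 from the start, in capitals. The DKK1 stretch is chr10:52314031-52314280, plus strand, and that of LGR4 is chr11:27472791-27473040, minus strand.
DKK1: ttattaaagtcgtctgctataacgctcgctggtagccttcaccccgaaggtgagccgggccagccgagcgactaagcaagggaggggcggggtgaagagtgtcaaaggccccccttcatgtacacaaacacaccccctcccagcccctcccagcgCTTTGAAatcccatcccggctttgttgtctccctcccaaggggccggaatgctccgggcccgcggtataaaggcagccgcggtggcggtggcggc
LGR4: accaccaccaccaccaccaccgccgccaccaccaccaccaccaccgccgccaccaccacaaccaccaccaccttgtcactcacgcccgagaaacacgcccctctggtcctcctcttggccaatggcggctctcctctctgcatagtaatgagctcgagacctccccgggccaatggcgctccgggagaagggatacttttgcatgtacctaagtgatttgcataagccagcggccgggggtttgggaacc
The match describes letters in this window and not a bound site.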

How the data were processed

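RNA-seq libraries of SV-HUC-1 cells, 3 control and 3 DCBQ, were analysed from 1 table of TPM that the authors deposited, with 60624 Ensembl identifiers and 6 columns, each matching 1 library's labels. Every column sums to 1000000, so depth is unknown. The submitters' processing notes list the genome build hg38, the aligner HISAT2 2.2.1, DESeq2 1.34.0, StringTie 2.1.7, Trimmomatic 0.38 and FastQC. Which annotation, strand setting and tool gave the TPM is not given in the sources used here. A table of gene identifiers supplied the symbols, and coordinates and overlaps from GENCODE 29 (GRCh38).

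The 16734 genes averaging 1 TPM or more over the 6 libraries were fitted on log2(TPM + 1) with limma 3.58.1 in R 4.3.3 (eBayes with a variance trend, group as the only term), as a two-sided test whose p-values were adjusted by Benjamini-Hochberg over that whole set. The fit was first tested on simulated data. Folds are ratios of mean TPM without a pseudocount. Named genes were all 10 members, and in each pathway list the 4 genes with the smallest p, of which a part is described. TLE3, TLE4, LEF1, LGR5, LGR6, NOTUM, CDH1, SKP1 and the other overlapping genes lie outside this rule and were chosen after values had been seen. For LGR4 and DKK3 the 3 genes with the highest Pearson r were added. The members and lists were chosen with earlier results of these data known. Alternatives were other pseudocounts, filters, scalings and eBayes settings, a fit blocked on replicate number, array weights, and omission of single libraries. Of the cell type markers chosen, 1 is not reported here.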

Additional observations from a re-analysis of the deposited data

How the results depend on the processing

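Over 17 alternatives, the calls of DKK1, DKK3, LGR4, TCF7 and CTNNB1 kept their direction and side of the threshold. The 3 members called higher stayed 3 in each. The 4 called lower became 2 after quantile normalization, median-of-ratios scaling and leaving out mitochondrially encoded genes, where TCF7L1 and ZNRF3 lost their calls, and 3 to 4 without any 1 library. Over all genes the 2247 higher and 6610 lower calls became 3814 and 3966 after quantile normalization and 3995 and 3861 after median-of-ratios scaling. The latter 2 centre the libraries by construction. The log2 difference of TCF7L2 turned to 0.18 after quantile normalization, 0.14 after median-of-ratios scaling and 0.035 without mitochondrially encoded genes. PORCN turned to 0.12, 0.15 and 0.046 under the same 3, TMED2 to 0.12 and 0.0085 under the last 2, TMED5 to 0.0034 under the first, and WLS to 0.13 and 0.080 and WNT10A to 0.028 and 0.041 under the first 2. Without any 1 library the TCF7 share differed by 7.73 to 8.92 percentage points and the LGR4 ratio by 1.59 to 1.89. With the replicate number as a block, 3 members were higher and 3 lower (ZNRF3 adjusted p = 0.066, WNT5A 0.057), and 2156 genes were higher and 6344 lower. The labels do not say whether same-numbered libraries were paired. Deviations from the group means correlated across genes at -0.04, 0.05 and 0.05 for same-numbered libraries. For the other pairs they correlated at -0.07 to 0.03. Deviations within a group of 3 sum to 0, so these values cannot decide on pairing. TPM gives no depth, so AXIN2 and RNF43 carry an unknown counting error.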

Other observations

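Genes of the adherens junction, which also holds β-catenin, went both ways. Of 6 tested adherens junction partners 2 were higher and 1 lower, with a median log2 difference of 0.10, and 4 were higher and 1 lower after median-of-ratios scaling. JUP, which encodes plakoglobin, the closest relative of β-catenin, rose 1.34-fold from 271 ± 13 to 364 ± 11 TPM (limma adjusted p = 0.00016), and CTNND1, which encodes p120-catenin, rose 1.40-fold from 127 ± 5.8 to 178 ± 20 TPM (adjusted p = 0.0015). CDH2, which encodes N-cadherin, fell 2.24-fold from 16.2 ± 0.91 to 7.24 ± 1.1 TPM (adjusted p = 0.00016). CDH3, which encodes P-cadherin, had 158 ± 4.0 and 171 ± 4.0 TPM and a difference of 0.11 that missed the threshold as deposited, and it was called higher after median-of-ratios scaling (0.36, adjusted p = 0.00032).

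Planar cell polarity genes, which orient cells within a sheet through a Wnt branch that does not use β-catenin, numbered 11 tested, 3 of them called higher and 4 lower, and their median of -0.16 turned to 0.06 after median-of-ratios scaling, where 4 were higher and 3 lower. The atypical cadherin genes went apart, CELSR3 falling 2.15-fold from 6.28 ± 0.68 to 2.91 ± 0.36 TPM (limma adjusted p = 0.00086) and CELSR2 rising 1.37-fold from 39.3 ± 0.20 to 53.8 ± 5.4 TPM (adjusted p = 0.0015). INVS fell 1.49-fold, and VANGL2 fell 1.35-fold as deposited, a call lost after median-of-ratios scaling (adjusted p = 0.071). Of the 4 ligand release genes 0 were called higher and 2 lower, and 2 higher and 0 lower after median-of-ratios scaling.

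The genes most like LGR4 over the 6 libraries, by Pearson r of log2(TPM + 1), were LAP3 (0.9994), ADGRA3 (0.9983) and RARS1 (0.9982), and those most like DKK3 were KDM4A (0.9998), XPO5 (0.9995) and WDR25 (0.9993). With 6 libraries in 2 separate groups, 54 and 159 genes passed 0.99, so these names describe the libraries and no more.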
